A study of Mus musculus with 12 samples.

Results

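CXCR3 and 3 chemokines that bind it were followed in the skin of LL37-injected and control mice, each with or without rapamycin (RAPA). The members were the 4 genes Cxcl9, Cxcl10, Cxcl11 and Cxcr3, taken from the table of read counts by Ensembl identifier, 4 of 52636 genes listed. All 4 passed the filter on low counts, which left 17993 genes for testing. Skin lesions of BALB/c mice were sequenced in 4 groups of 3 independent biological samples, with 1 library per sample. The mice of the rosacea-like model were 8 weeks old, and 40 µl of control vehicle or of LL37, a peptide cut from human cathelicidin, was injected intradermally into shaved back skin over 2 days. Control mice received neither LL37 nor RAPA, control + RAPA mice RAPA without LL37, LL37 mice LL37 without RAPA, and LL37 + RAPA mice both. By the study's figure legend, control and LL37 mice were given vehicle in place of RAPA. RAPA inhibits mTORC1; for BALB/c mice in general the methods state injection into the peritoneum at 4 mg/kg per day, without naming the sequenced mice. The p-values measure the spread between these samples only.

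CXCL9, CXCL10 and CXCL11 are small secreted proteins that attract activated T cells and NK cells bearing the receptor CXCR3. Their genes are classic targets of interferon, which acts through receptor-bound JAK kinases, with Cxcl9 leaning on interferon gamma and Cxcl10 and Cxcl11 responding also to type I interferon and, for Cxcl10, to NF-κB. In skin, keratinocytes, fibroblasts, endothelium and myeloid cells can make the ligands.

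On the mouse build GRCm38 with the GENCODE M21 annotation, the ligand genes lay side by side on the minus strand of chromosome 5, Cxcl9 (ENSMUSG00000029417) at chr5:92321347-92328079, Cxcl10 (ENSMUSG00000034855) at chr5:92346638-92348889 and Cxcl11 (ENSMUSG00000060183) at chr5:92359544-92365485. Cxcr3 (ENSMUSG00000050232) lay on the minus strand of the X chromosome, at chrX:101731535-101734269. Cxcl11 is annotated as a polymorphic pseudogene in this release. Art3, on the plus strand, spans Cxcl10 and Cxcl11 and shares 133 exonic bases with Cxcl10, 5.91% of its exons, and 0 with Cxcl11. The processed pseudogene Gm2673, also on the plus strand, shares 1582 bases with Cxcl11, 41.7% of its exons, and was listed at 0 counts in all 12 libraries. The strand setting of the counting is not given in the sources used here, so reads in the shared stretches cannot be assigned to 1 gene of each pair.

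The 250 bases before the start of Cxcl9 and Cxcl10 are printed because these neighbouring genes differed most in their response to LL37. Both are RefSeq sequences of GRCm38.p6 on the minus strand, Cxcl9 from chr5:92328080-92328329 and Cxcl10 from chr5:92348890-92349139, read 5′ to 3′. Capitals mark the matches to 3 motifs searched on both strands. These were the interferon-stimulated response element (ISRE, TTTC, any 2 bases, then TTTC), the interferon gamma-activated site (GAS, TTCNNNGAA) and the NF-κB motif (GGGRNNYYCC). N stands for any base, R for A or G and Y for C or T.
Cxcl9: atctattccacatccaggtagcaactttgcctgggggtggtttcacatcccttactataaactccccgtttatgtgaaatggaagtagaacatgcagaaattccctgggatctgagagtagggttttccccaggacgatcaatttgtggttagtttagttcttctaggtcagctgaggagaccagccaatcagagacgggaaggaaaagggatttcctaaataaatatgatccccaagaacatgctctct
Cxcl10: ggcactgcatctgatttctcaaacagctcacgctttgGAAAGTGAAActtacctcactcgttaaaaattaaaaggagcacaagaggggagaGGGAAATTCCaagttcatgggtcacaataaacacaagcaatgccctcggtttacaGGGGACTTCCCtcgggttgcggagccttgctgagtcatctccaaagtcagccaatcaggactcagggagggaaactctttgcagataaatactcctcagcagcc
The Cxcl10 window held 1 ISRE match, on the minus strand of the promoter, from -213 to -204 relative to the start, and 3 NF-κB matches, at -159 to -150, -104 to -95 and -103 to -94, the last pair overlapping. The Cxcl9 window held no match to the 3 motifs, and neither did the Cxcr3 window. Among 32851 promoter windows of the same length, 2.98% held the ISRE, 7.02% the GAS and 7.25% the NF-κB motif. A RefSeq promoter was at hand for 3 of the 4 members, all but Cxcl11. A match describes these letters only. Stretches that depart from a pattern were not counted, so a window without a match may still hold a site.

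Depth ranged from 15734559 to 23271784 counts per library, and 3 counts corresponded to between 0.123 and 0.184 CPM, the count per library size after TMM scaling. A floor of this kind covers counting error only. The epidermis markers summed to between 28855 and 44481 CPM, so the labelled tissue was present in every library. The skeletal muscle markers summed to between 47484 and 86090 CPM in the 6 libraries of control and control + RAPA, to between 3997 and 8654 CPM in LL37 + RAPA, and to between 171 and 1211 CPM in LL37, and 33 of 34 tested muscle genes fell in LL37 vs control. Scaling without the muscle list changed no call of a member.

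**Figure D1:**
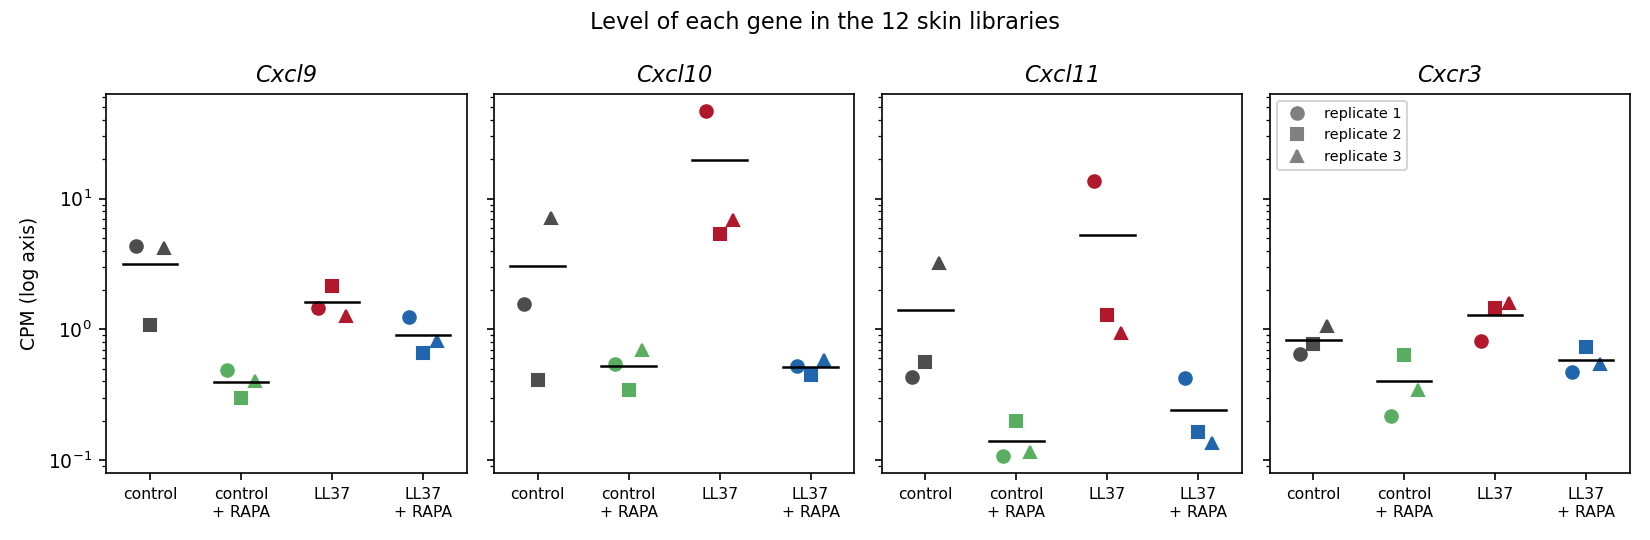
CPM of each gene on a log axis in the 12 libraries, by group, with circles, squares and triangles for replicates 1, 2 and 3 and a bar at the mean of 3 libraries. Cxcl10 and Cxcl11 were highest in replicate 1 of LL37, at 46.6 and 13.7 CPM, and all 4 genes had their lowest library in control + RAPA.

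Cxcl10 rose with LL37 and was lowest with RAPA. It counted 29, 8 and 135 reads in the 3 control libraries and 857, 88 and 146 in the LL37 libraries, or 1.56, 0.410 and 7.11 CPM against 46.6, 5.39 and 6.88 CPM. In LL37 + RAPA it counted 11, 11 and 13 reads, or 0.522, 0.450 and 0.586 CPM, and in control + RAPA 10, 7 and 12, or 0.542, 0.346 and 0.691 CPM. The LL37 libraries were all above the LL37 + RAPA libraries, whereas control replicate 3 was above LL37 replicates 2 and 3. Within LL37, replicate 1 was 8.65-fold above the lowest library, and within control the libraries spread 17.3-fold. On the log2 scale Cxcl10 was higher by 2.70 (SE 0.90, 95% interval 0.72 to 4.67, adjusted p = 0.0314, edgeR quasi-likelihood test with Benjamini-Hochberg adjustment over all tested genes) in LL37 vs control, and by 5.23 (SE 1.08, interval 2.87 to 7.59, adjusted p = 0.00679) in LL37 vs LL37 + RAPA. The first call was lost without LL37 replicate 1, at 1.02 with an adjusted p of 0.324, without control replicate 1, at 2.38 with 0.106, and without control replicate 2, at 2.16 with 0.0835. The second was kept in each of the 21 alternatives, with values from 3.55 to 5.68.

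Cxcl11, which binds CXCR3 most tightly of the ligands, followed Cxcl10 at lower counts. It counted 8, 11 and 61 reads in control, or 0.431, 0.564 and 3.21 CPM, and 252, 21 and 20 in LL37, or 13.7, 1.29 and 0.942 CPM. In LL37 + RAPA the counts were 9, 4 and 3, or 0.427, 0.164 and 0.135 CPM, and in control + RAPA 2, 4 and 2, or 0.108, 0.198 and 0.115 CPM, so several of these levels sat at or near the 3-count limit. LL37 overlapped control and did not overlap LL37 + RAPA. The difference was 1.92 (SE 0.96, interval -0.18 to 4.01, adjusted p = 0.131, edgeR) in LL37 vs control, which did not pass, and 4.44 (SE 1.1615, interval 1.90 to 6.98, adjusted p = 0.0188) in LL37 vs LL37 + RAPA, which did. Without LL37 replicate 1 the first turned to -0.34 (adjusted p = 0.768), and without control replicate 3 or LL37 replicate 3 it passed, at 3.39 (adjusted p = 0.0383) and 2.45 (adjusted p = 0.0353). The second lost its call without LL37 replicate 1, at 2.19 (adjusted p = 0.122), and without LL37 + RAPA replicates 1, 2 or 3, at 5.09, 4.22 and 4.17 (adjusted p between 0.0512 and 0.0688).

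Cxcl9 did not rise with LL37. It counted 80, 21 and 79 reads in control, or 4.31, 1.08 and 4.16 CPM, and 27, 35 and 27 in LL37, or 1.47, 2.14 and 1.27 CPM. Control replicates 1 and 3 were above every LL37 library and control replicate 2 below them. In LL37 + RAPA it counted 26, 16 and 18 reads, or 1.23, 0.655 and 0.811 CPM, and in control + RAPA 9, 6 and 7, or 0.488, 0.296 and 0.403 CPM. All control + RAPA libraries lay below all libraries of the other 3 groups. The difference was -0.97 (SE 0.45, interval -1.96 to 0.02, adjusted p = 0.107, edgeR) in LL37 vs control and 0.85 (SE 0.48, interval -0.21 to 1.91, adjusted p = 0.220) in LL37 vs LL37 + RAPA, and neither passed. Without control replicate 2, Cxcl9 was called lower in LL37 than in control, at -1.40 (adjusted p = 0.00673).

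Cxcr3, the receptor, was at low counts throughout. It counted 12, 15 and 20 reads in control and 15, 24 and 34 in LL37, or 0.647, 0.769 and 1.05 CPM against 0.816, 1.47 and 1.60 CPM. It counted 10, 18 and 12 in LL37 + RAPA and 4, 13 and 6 in control + RAPA, or 0.474, 0.737 and 0.541 CPM against 0.217, 0.642 and 0.345 CPM. LL37 overlapped control, and each LL37 library was above each LL37 + RAPA library. The difference was 0.65 (SE 0.39, interval -0.21 to 1.52, adjusted p = 0.207, edgeR) in LL37 vs control and 1.14 (SE 0.40, interval 0.26 to 2.01, adjusted p = 0.0586) in LL37 vs LL37 + RAPA. Neither passed, although the second passed without control + RAPA replicate 2, at 1.13 (adjusted p = 0.0460).

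Calls needed an adjusted p under 0.05 together with a log2 difference of more than 1 in size. In LL37 vs control 1 of the 4 members was called, Cxcl10, where 19.5% of all tested genes were called. In LL37 vs LL37 + RAPA 2 of 4 were called, Cxcl10 and Cxcl11, against 10.1% of all genes. The groups did not overlap for 4 of 4 members in LL37 vs LL37 + RAPA, as for 38.3% of all tested genes. Both comparisons share the LL37 libraries, so a library that stands high there moves both.

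**Figure D2:**
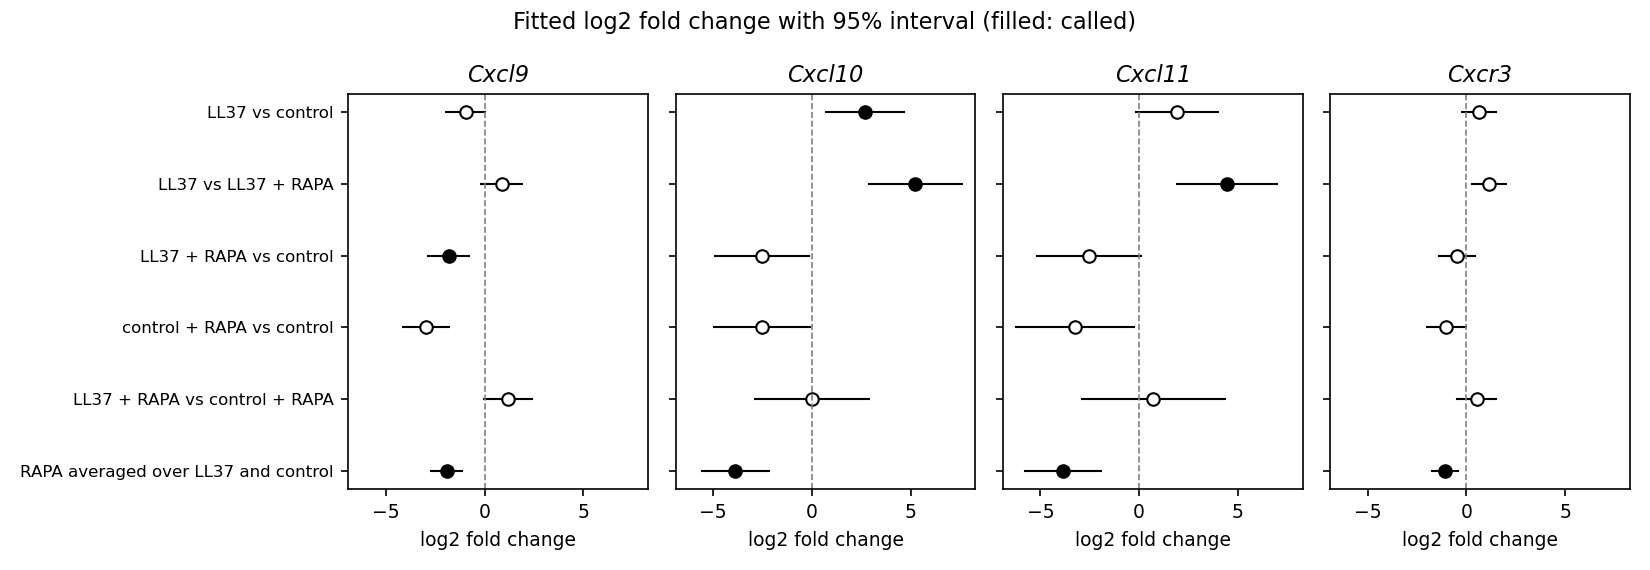
Fitted log2 fold change of each gene (x axis) in 6 comparisons, with its 95% interval, filled where the gene was called. The RAPA difference averaged over LL37 and control lay below 0 for all 4 genes, and the Cxcl10 interval in LL37 vs LL37 + RAPA ran from 2.87 to 7.59.

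The comparison of LL37 + RAPA vs control asks what was left of the change under RAPA. Cxcl9 was lower in LL37 + RAPA, at -1.82 (SE 0.47, adjusted p = 0.0238, edgeR), and was the 1 member of 4 called, where 6.49% of all genes were called. The groups overlapped through control replicate 2, and the call was lost without control replicates 1 or 3 or LL37 + RAPA replicates 2 or 3 (values -1.54, -1.59, -1.63 and -1.76, adjusted p between 0.0846 and 0.108). Cxcl10 and Cxcl11 were both at -2.53 (adjusted p = 0.155 and 0.204) and Cxcr3 at -0.48 (adjusted p = 0.511).

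In control + RAPA vs control, RAPA was compared without LL37. All 4 values were below 0, at -2.99 for Cxcl9 (SE 0.53, adjusted p = 0.189, edgeR), -2.53 for Cxcl10 (SE 1.12, 0.570), -3.25 for Cxcl11 (SE 1.36, 0.550) and -1.01 for Cxcr3 (SE 0.44, 0.565). edgeR called 0 of 4 members and 0% of all genes in this comparison. At an unadjusted p under 0.05 there were 4 of 4 members and 1556 genes, 8.65% of all tested, while DESeq2 called 52 genes, among them Cxcl9 (-3.03, adjusted p = 0.000182). Cxcl9, Cxcl11 and Cxcr3 did not overlap between these groups, a state found in 15.7% of all tested genes. Without control replicate 2, Cxcl9 passed in edgeR too, at -3.43 (adjusted p = 0.0113).

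With RAPA on both sides, LL37 + RAPA vs control + RAPA, edgeR called 0 of 4 members, where 8.39% of all genes were called. None of the 4 had an unadjusted p under 0.05 in edgeR. DESeq2 called 0 of the 3 members for which it gave an adjusted p, all but Cxcl11. Cxcl9 was at 1.17 (SE 0.56, interval -0.05 to 2.40, adjusted p = 0.182), with each LL37 + RAPA library above each control + RAPA library. These groups did not overlap for 41.3% of all tested genes. Cxcl10 was at -0.01, with an interval from -2.90 to 2.88 that holds changes of several-fold in both directions, and its sign turned with the setting. Cxcl11 was at 0.72 (interval -2.90 to 4.34) and Cxcr3 at 0.52 (interval -0.46 to 1.504).

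The interaction term tests whether the RAPA difference in LL37 mice differed from that in control mice. edgeR called 0 of 4 members, where 2.38% of all genes were called (429, and between 2 and 1760 with 1 library left out). DESeq2 called 0 of the 3 members for which it gave an adjusted p. Cxcl9 had an unadjusted p of 0.0120, the 1 member under 0.05, at 2.14 (SE 0.72, adjusted p = 0.114), since its RAPA difference was larger in control than in LL37 mice. It passed without control replicate 2, at 2.59 (adjusted p = 0.0301). Cxcl10 was at -2.70 (interval -6.22 to 0.82), Cxcl11 at -1.20 (interval -5.68 to 3.29) and Cxcr3 at -0.13 (interval -1.48 to 1.22), all with adjusted p of 0.346 or above.

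A comparison added after the values were seen took the RAPA difference averaged over LL37 and control mice, 6 libraries against 6. The 4 members were all called lower with RAPA, where 3.77% of all tested genes were called in either direction and 1.91% lower. The log2 differences were -1.92 for Cxcl9 (SE 0.36, adjusted p = 0.00846, edgeR), -3.88 for Cxcl10 (SE 0.77, 0.0106), -3.84 for Cxcl11 (SE 0.88, 0.0177) and -1.07 for Cxcr3 (SE 0.30, 0.0364). All 6 libraries without RAPA were above the highest RAPA library for Cxcl11, and 5 of 6 were for Cxcl9, Cxcl10 and Cxcr3. Full separation, in either direction, was found in 0.90% of all tested genes. The share with 5 of 6 was not counted over all genes. The calls of Cxcl9 and Cxcl10 held in each of their 20 alternatives, that of Cxcl11 was lost without control replicate 3 (-3.11, adjusted p = 0.0633), and that of Cxcr3 was lost in 8 of 12 fits that left out 1 library, with values from -1.34 to -0.94. DESeq2 called the 3 members for which it gave an adjusted p, all but Cxcl11.

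Per kilobase of exon, which allows levels of different genes to be compared, Cxcl10 led in LL37 at 8.72 ± 10.4 CPM per kb (SD, n = 3), followed by Cxcl11 at 1.40 ± 1.92, Cxcr3 at 0.749 ± 0.243 and Cxcl9 at 0.540 ± 0.152. In control the order was Cxcl10 at 1.34 ± 1.59, Cxcl9 at 1.06 ± 0.606, Cxcr3 at 0.476 ± 0.121 and Cxcl11 at 0.370 ± 0.414 CPM per kb. In LL37 + RAPA it was Cxcr3 at 0.337 ± 0.0788, Cxcl9 at 0.298 ± 0.0992, Cxcl10 at 0.231 ± 0.0301 and Cxcl11 at 0.0638 ± 0.0424 CPM per kb. In control + RAPA it was Cxcl10 at 0.234 ± 0.0769, Cxcr3 at 0.232 ± 0.126, Cxcl9 at 0.131 ± 0.0318 and Cxcl11 at 0.0370 ± 0.0131 CPM per kb. Second place of Cxcl11 in LL37 rested on replicate 1, at 3.615 CPM per kb. In replicates 2 and 3 it was the lowest of the 4 genes, at 0.339 and 0.248 CPM per kb, against 0.850 and 0.925 for Cxcr3 and 0.711 and 0.422 for Cxcl9. The length used for Cxcl11 includes the 1582 bases shared with Gm2673. If reads there were not counted, its level per kb is too low, so its place in these orders is uncertain. The ranges of mean ± SD overlapped between neighbours in each order, except between Cxcl10 and Cxcl11 in LL37 + RAPA and Cxcl9 and Cxcl11 in control + RAPA.

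The balance of the 3 ligands within a library needs no normalization between libraries. Cxcl10 made up 83.5, 69.5 and 82.0% of the summed ligand level per kb in LL37 replicates 1 to 3, against 31.0, 26.5 and 58.7% in control, 30.8, 43.4 and 46.1% in LL37 + RAPA and 55.8, 50.5 and 65.2% in control + RAPA. The LL37 libraries were above all others. These shares carry the same limit on the length of Cxcl11. The log2 ratio of Cxcl10 to Cxcl9 reads was 4.96, 1.32 and 2.41 in LL37, against -1.45, -1.34 and 0.77 in control and -1.20, -0.52 and -0.45 in LL37 + RAPA. The groups did not overlap in either pair, with differences of 3.57 and 3.62 (two-sided exact permutation p = 0.1 for both, the smallest that 3 against 3 can give, and 0.2 after adjustment over 6 ratio tests), so this design could not pass the threshold. The Cxcl10 to Cxcl11 ratio differed by 1.38 from control and 1.02 from LL37 + RAPA (exact permutation p = 0.2 for both), within the range of the libraries.

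**Figure D3:**
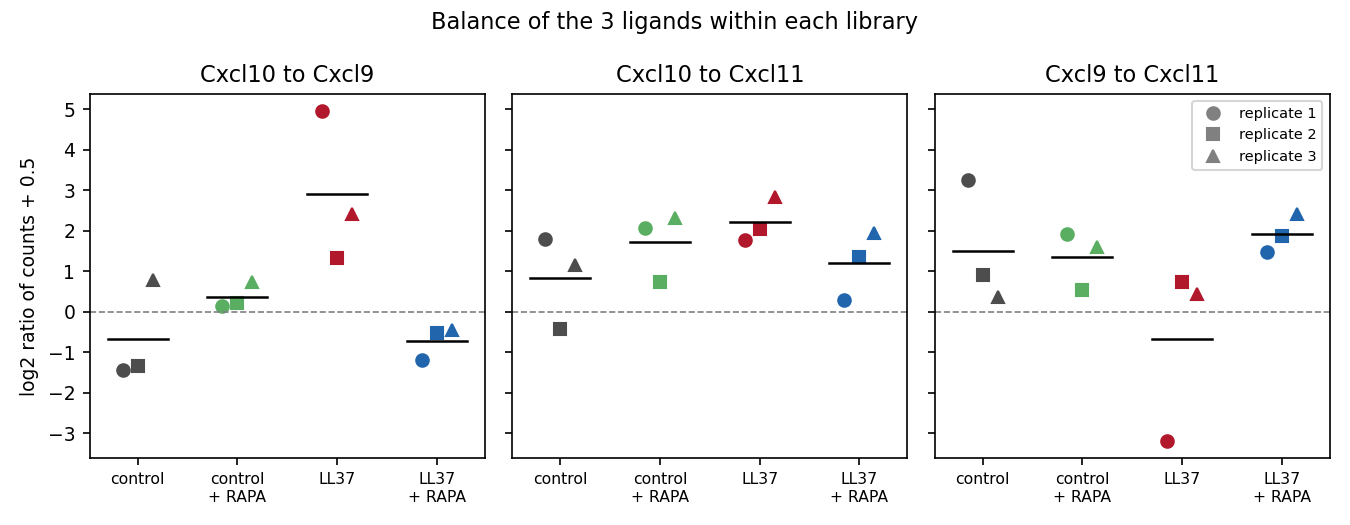
The log2 ratio of 2 ligands' counts, each + 0.5, in each library by group, with replicate symbols and a bar at the mean. In the first panel the LL37 libraries lie between 1.32 and 4.96, above every other library.

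Some genes followed the members closely across the 12 libraries. By Pearson's r of log2 CPM, given as a description because the 12 libraries fall into 4 groups, the genes most like Cxcl10 were Rsad2 (viperin, an antiviral enzyme) at 0.978, Cmpk2, its neighbour and also interferon-induced, at 0.977 and Plac8 at 0.969. For Cxcl11 they were AW112010 at 0.955, ENSMUSG00000051412 at 0.931 and Mto1 at 0.918. For Cxcl9 they were Iigp1, an interferon-induced GTPase, at 0.881, the keratin Krt2 at 0.836 and Tspan2 at 0.826. For Cxcr3 they were Ikzf3, a lymphoid transcription factor, at 0.938, Pikfyve at 0.899 and Traf3ip3 at 0.898. Among the members, Cxcl10 and Cxcl11 had an r of 0.921, and the other 5 pairs lay between 0.536 and 0.596.

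The inducing pathway was read from lists that were chosen with earlier results of these data known. Beside the list counts that follow stand the shares of all tested genes called in either direction. These were 19.5% in LL37 vs control, 10.1% in LL37 vs LL37 + RAPA and 3.77% in the RAPA average. For counts in 1 direction, the shares called higher were 8.73% in the first and 4.33% in the second. In the RAPA average 1.91% were called lower. The interferon genes on the input list, Ifng, Ifnb1, Ifnk and Ifne, were scarce. No interferon alpha or lambda gene was on it. Ifng, interferon gamma, had 9 reads over all 12 libraries and at most 3 in a library, and Ifnb1, a type I interferon, had 5 reads, all in LL37. Both were left untested, as were 7 of the 15 interferon inputs. Of the 8 tested, 2 rose in LL37 vs control, Il18rap (log2 fold change 3.61, adjusted p = 0.00137, edgeR) and Il18r1 (1.299, 0.0130), the receptor chains of interleukin 18. In LL37 vs LL37 + RAPA 1 of 8 was higher, Il27 (3.02, adjusted p = 0.0263), and this call was lost without LL37 replicate 1 or any 1 LL37 + RAPA library. Without LL37 replicate 3 these counts were 6 and 5 of the list, and without LL37 replicate 2 the first was 1.

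Receptor signalling genes showed more calls. Of 17 tested, 8 rose in LL37 vs control and 7 were higher in LL37 vs LL37 + RAPA, where 19.5% and 10.1% of all genes were called. The medians were 0.91 and 0.61 beside a median of -0.0049 and -0.0042 over all tested genes. The list also held Socs1, Socs3 and Usp18. Socs3 was at 84.1, 84.3 and 88.9 CPM in control and 749, 718 and 177 CPM in LL37. Irf9, a transcription factor of the type I interferon response, differed by 1.04 in the first of these comparisons (adjusted p = 0.000318, edgeR) and by 1.08 in the second (0.00166). Jak2, a kinase of the interferon gamma receptor, rose by 1.37 in LL37 vs control (adjusted p = 0.00418), and Irf1, an interferon-induced transcription factor, was higher by 1.06 in LL37 vs LL37 + RAPA (adjusted p = 0.0048). The receptor chains Ifngr1 and Ifngr2 were at 0.48 and 0.14 in LL37 vs control and were not called, nor was Jak1 at 0.28.

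Genes induced by type I interferon, such as antiviral enzymes and sensors, formed the next list. Of 27 tested, 25 rose in LL37 vs control (median 2.19), 27 were higher in LL37 vs LL37 + RAPA (median 2.89) and 27 were lower in the RAPA average (median -2.19). In control + RAPA vs control all 27 values were below 0, with a median of -1.56, and edgeR called 0. Trim30a differed by 2.47 and 1.95 in the first and second comparison (adjusted p = 0.000159 and 0.00263), and Eif2ak2, the kinase PKR, by 1.64 and 1.57 (0.000161 and 0.0016). The summed CPM of the list was 3320, 1199 and 1570 in LL37 replicates 1 to 3 and 534, 266 and 771 in control, so LL37 replicate 1 and control replicate 3, where Cxcl10 and Cxcl11 were highest in their groups, were also highest for this list.

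Genes induced by interferon gamma formed a separate list. Of 33 tested, 8 rose in LL37 vs control (median 0.77), where 19.5% of all tested genes were called in either direction, and 15 were higher in LL37 vs LL37 + RAPA (median 1.08, 10.1% of all genes called), and 15 were lower in the RAPA average (median -0.85). Nos2, the inducible nitric oxide synthase, rose by 4.51 in LL37 vs control (adjusted p = 0.000353) and was higher by 3.34 in LL37 vs LL37 + RAPA (0.00432). The count of 15 fell to 6 without LL37 replicate 1, and the count of 8 fell to 4 without LL37 replicate 1 or control replicate 2 and reached 13 without LL37 replicate 2.

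**Figure D4:**
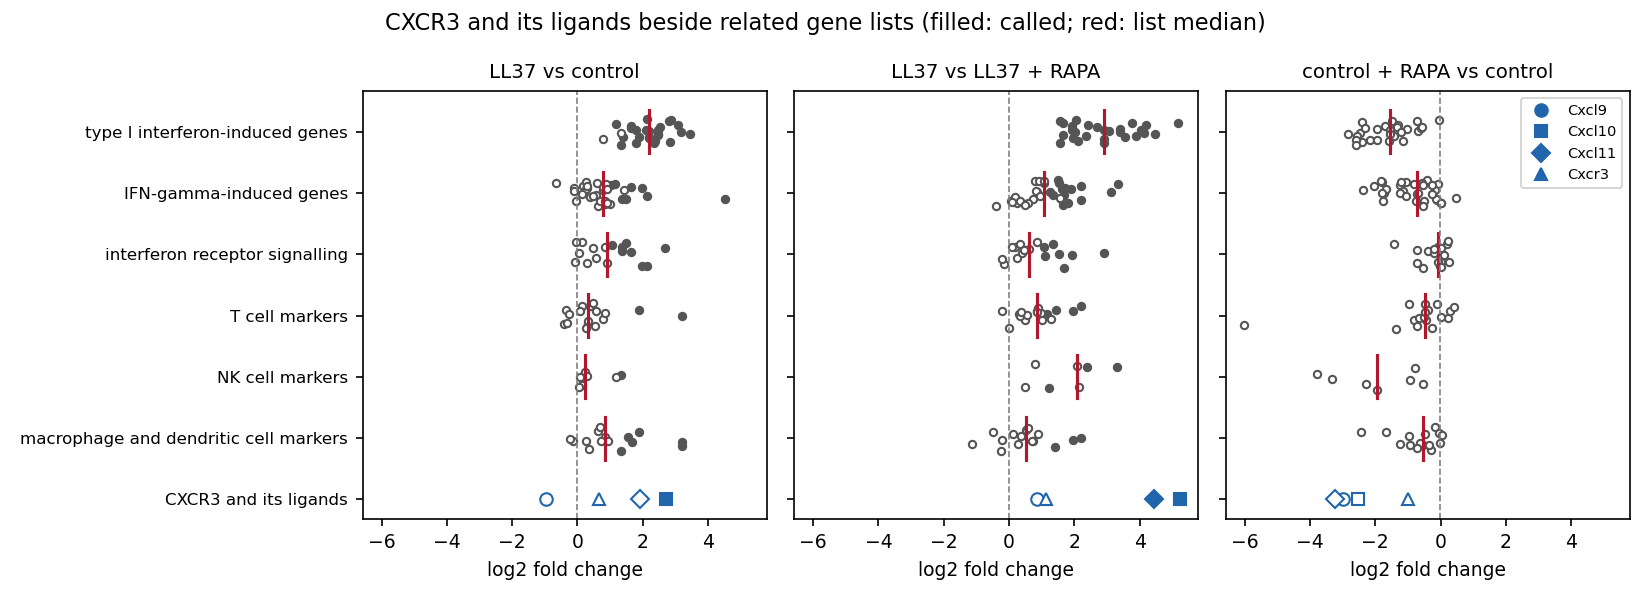
Log2 fold change (x axis) of tested genes of 6 lists and of the 4 members (blue symbols) in 3 comparisons, filled where called, with a red bar at each list's median and a dashed line at the median of all genes. In LL37 vs control, 25 of 27 type I interferon-induced genes and 1 of 4 members were called higher, with Cxcl9 at -0.97.

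**Figure D5:**
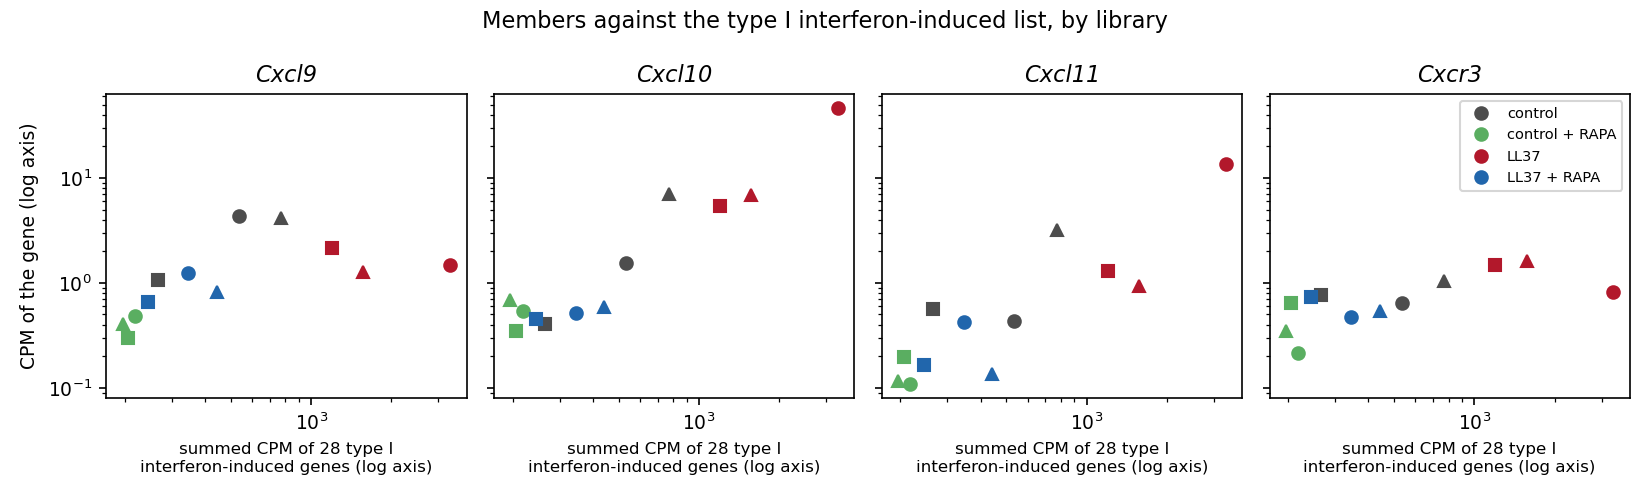
CPM of each member (y axis, log) against the summed CPM of the type I interferon-induced list (x axis, log) in the 12 libraries, coloured by group, with circles, squares and triangles for replicates 1 to 3. Cxcl10 and Cxcl11 peaked in the library with the highest sum, 3320 CPM, whereas Cxcl9 was at 1.47 CPM and Cxcr3 at 0.816 CPM there.

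Markers of T cells and NK cells, which can bear CXCR3, were set beside the receptor. In bulk tissue, fewer cells of a type and less RNA per cell cannot be told apart. The T cell list (17 of 21 tested) summed to 49.2 to 58.0 CPM in control, 42.5 to 52.1 in control + RAPA, 63.9 to 70.1 in LL37 and 43.0 to 43.5 in LL37 + RAPA, with 2 genes higher in LL37 vs control (Ccr7 at 3.20, also on the macrophage and dendritic cell list, and Cd4 at 1.88), where 19.5% of all genes were called, and 4 in LL37 vs LL37 + RAPA, among them Cd3g at 1.157 (adjusted p = 0.00226) and Ccr7 at 1.95. Of the T cell sums, Ccr7 alone made up 13.7, 12.6 and 6.88 CPM in LL37 and 1.35, 0.564 and 1.69 CPM in control. The higher LL37 sums thus rested in part on Ccr7, and sums without it were not taken. Trbc2, a T cell receptor gene named after its values were seen, averaged 17.9 CPM in control and 13.3 in LL37 and was not called (-0.43, adjusted p = 0.0912, edgeR). Cd3e, a chain of the T cell receptor complex, averaged 2.29, 1.89, 3.20 and 1.72 CPM in control, control + RAPA, LL37 and LL37 + RAPA and was not called, and Cd8a had 31 reads in all. The NK cell list (7 of 12 tested) summed to 8.15 to 20.5 CPM in control, 3.90 to 6.86 in control + RAPA, 16.6 to 21.99 in LL37 and 5.98 to 6.96 in LL37 + RAPA, so all 6 libraries without RAPA were above all 6 with it, and 5 of 7 NK genes were called lower in the RAPA average. In LL37 vs control 1 NK gene was called, Klrk1 at 1.32 (adjusted p = 0.0331), and 0 were called without LL37 replicate 1 or control replicates 1 or 2, while 2 were without control replicate 3. In LL37 vs LL37 + RAPA 3 were called, and 5 without control replicate 2. Klrk1 was higher by 2.38 in LL37 vs LL37 + RAPA (adjusted p = 0.00599), and Ncr1 averaged 0.548, 0.111, 0.563 and 0.129 CPM in the same order of groups. The part of these cells in the Cxcr3 level was not tested.

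Markers of myeloid cells, which can make the ligands, also moved. Of 15 tested macrophage and dendritic cell genes, 6 were called higher in LL37 vs control, where 19.5% of all genes were called. In LL37 vs LL37 + RAPA 3 were called higher, where 10.1% of all genes were called. Values below 0 were found for 2 genes in the first and 4 in the second, among the latter the dendritic cell marker Clec9a. The list summed to 342 to 639 CPM in control, 359 to 379 in control + RAPA, 1024 to 1178 in LL37 and 621 to 830 in LL37 + RAPA. Adgre1 (F4/80) differed by 1.54 and 1.42 (adjusted p = 0.0014 and 0.00634). Fcgr1, an Fc receptor that interferon gamma induces, differed by 3.20 and 2.20 (adjusted p = 0.000647 and 0.0105). Of the 5 tested plasmacytoid dendritic cell markers, 1 was called, Cox6a2, which was lower in LL37 and is also on the muscle list. Their part in the ligand levels was not tested.

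Genes that cut, hold or take up the ligands were listed together with Pf4, itself a CXC chemokine, and were split. Of 16 tested, 5 rose and 2 fell in LL37 vs control, where 19.5% of all genes were called. In LL37 vs LL37 + RAPA 2 were higher and 2 lower, where 10.1% of all genes were called. The risers in LL37 vs control included the cathepsins Ctsl (1.38, adjusted p = 0.000362, edgeR) and Ctss (1.82, 0.000769). Pf4 was called higher in both comparisons. It was at 26.5, 9.48 and 13.2 CPM in control and 226, 256 and 169 CPM in LL37. In LL37 + RAPA it was at 90.0, 148 and 58.6 CPM. Dpp4, a peptidase that trims the ligands' N-terminus, fell from 53.1 CPM in control to 13.2 in LL37, a log2 difference of -2.003 (adjusted p = 0.000214), and was at 14.1 CPM in LL37 + RAPA, with no call between LL37 and LL37 + RAPA (-0.09, adjusted p = 0.842). Ackr3, a scavenging receptor for CXCL11, was at 0.27 and 0.72 in the first and second comparison and was not called (adjusted p = 0.471 and 0.0864). Art3, the gene that spans Cxcl10 and Cxcl11, moved the other way, from 91.2 CPM in control to 10.8 in LL37 (-3.08, adjusted p = 1.14e-06).

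Other chemokines of the CXC family and their receptors were set beside the members. The ELR-positive list held 5 tested chemokines that draw neutrophils (Cxcl1, Cxcl2, Cxcl3, Cxcl5 and Ppbp) and their receptors Cxcr1 and Cxcr2, and all 7 genes rose in LL37 vs control (median 5.97), while 6 of 7 were higher in LL37 vs LL37 + RAPA, a count of 2 or 3 without LL37 replicates 1 or 2, LL37 + RAPA replicates 1 or 3 or control + RAPA replicate 3. The ELR-negative list held 4 tested chemokines (Cxcl12, Cxcl13, Cxcl14 and Cxcl16) and 3 receptors (Cxcr4, Cxcr6 and Ackr3), of which Cxcl16 rose by 1.10 (adjusted p = 0.000417) and Cxcl13, a B cell attractant, was at -3.11 (0.000299) in LL37 vs control. This count of 2 was 4, 5 and 4 without control replicate 1, control replicate 3 and LL37 replicate 3.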

How the data were processed

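The members and lists were chosen with earlier results of these data known. The authors deposited raw read counts per Ensembl gene, without normalization or pooling. The study's methods name HTSeq for counting, while the submitters' processing notes list HISAT2 2.0.5, StringTie 1.3.3b, featureCounts 1.5.0-p3, DESeq2 and mm10. Gene names came from GENCODE M21, which matched 52403 of 52636 identifiers. All 12 libraries (15734559 to 23271784 counts) were fitted together in R 4.3.3 with edgeR 4.0.16 (TMM, filterByExpr by group, quasi-likelihood F-test), and p-values were adjusted by Benjamini-Hochberg over 17993 genes. CPM means and SDs are over 3 libraries. Log2 CPM for correlations used a prior count of 2, and within-library ratios used counts + 0.5. Nothing in the sources names a batch. Named genes were the members, a fixed set of genes of the inducing pathway, ligand handling, cell markers and locus, up to 2 called genes per list and direction with the smallest p, and the 3 genes most correlated with each member. A gene of the inducing pathway is not reported here. Alternatives were 2 other scalings, TMM without the muscle list, 2 other filters, DESeq2 1.42.0, a fit of just the 2 groups compared, adjusted p alone, a block for replicate number, and each library left out. The calling steps were tested on simulated counts with known changes, which does not test the member calls given here.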

Additional observations from a re-analysis of the deposited data

Results flagged for a closer look

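In 3 genes set beside the members, the RAPA difference in LL37 mice differed from that in control mice by the interaction term (edgeR, log2 scale). The values were 1.36 for Art3 (SE 0.26, adjusted p = 0.0246), whose span holds Cxcl10 and Cxcl11, 2.75 for Itgb1bp2 (SE 0.58, adjusted p = 0.0336), a muscle-expressed gene near Cxcr3, and 3.41 for Cox6a2 (SE 0.68, adjusted p = 0.0293), which is on both the plasmacytoid dendritic cell and the muscle list. Their mean levels in control, control + RAPA, LL37 and LL37 + RAPA were 91.2, 117, 10.8 and 35.7 CPM for Art3, 35.7, 22.8, 1.25 and 5.60 CPM for Itgb1bp2, and 174, 131, 1.35 and 11.5 CPM for Cox6a2. The muscle list, with 8 of 34 genes called in the same direction by this term, moved with them, and its part was not tested. Art3 was called in 5, Cox6a2 in 4 and Itgb1bp2 in 3 of 12 fits that left out 1 library, with values from 1.23 to 1.53, 2.95 to 5.32 and 2.44 to 3.53, and 0 of the 3 were called by edgeR without control replicates 1 or 3, control + RAPA replicate 3, LL37 replicate 1 or LL37 + RAPA replicates 1 or 3 (adjusted p between 0.0517 and 0.0945). DESeq2 on all libraries called all 3. The muscle count of 8 was 0 without any 1 of these 6 libraries or control + RAPA replicate 2, and 31 without LL37 replicate 3. With the replicate block, Art3 and Cox6a2 were not called (adjusted p = 0.0504 and 0.0516).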

How the results depend on the processing

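Over the alternatives, members kept direction and side of the threshold 518 times, became called 10 times, lost a call 23 times and changed sign 19 times. The cause of each change was not tested. Cxcl10 in LL37 + RAPA vs control + RAPA, at -0.01, turned to 0.0029 with DESeq2 size factors, 0.1789 with library size only, 0.0036 without the muscle list, 0.0267 without a filter, 0.0227 with only the compared groups and 0.0549 with the replicate block. Cxcl9 in control + RAPA vs control was called without a filter (-3.0165) and by DESeq2 (-3.0256). With only the compared groups, calls were lost for Cxcl10 in LL37 vs control (2.677), Cxcl11 in LL37 vs LL37 + RAPA (4.4359) and Cxcl9 in LL37 + RAPA vs control (-1.8304). DESeq2 gave Cxcl11 no adjusted p in the 7 comparisons.

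The labels link replicates of different groups by number only. The 18 same-numbered pairs correlated between -0.188 and 0.263, 4 of them above 0.1, and differently numbered pairs between -0.303 and 0.277. Of 12 libraries, 5 correlated best with one of their own number. Whether same-numbered samples were paired cannot be told from these values. With the replicate block, Cxcr3 in LL37 vs LL37 + RAPA was called (1.1237, adjusted p = 0.0394, edgeR), and calls over all genes moved from 3516 to 3480 in LL37 vs control and from 1823 to 1703 in LL37 vs LL37 + RAPA.

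With 1 library left out, values in LL37 vs control ranged from -1.4046 to -0.6977 for Cxcl9, 1.0202 to 4.3013 for Cxcl10 and -0.3389 to 3.3872 for Cxcl11. In LL37 vs LL37 + RAPA they ranged from 2.1863 to 5.0869 for Cxcl11 and 0.9442 to 1.3808 for Cxcr3. Cxcl9 ranged from -2.2461 to -1.5397 in LL37 + RAPA vs control, -3.4291 to -2.7218 in control + RAPA vs control and 0.8826 to 1.372 in LL37 + RAPA vs control + RAPA, where it was called without control replicate 2, and Cxcl10 ranged from -0.2463 to 0.2434 there. The interaction ranged from 1.8555 to 2.5876 for Cxcl9, -2.6559 to 1.0607 for Cxcl11 and -0.3913 to 0.4049 for Cxcr3. The RAPA average ranged from -4.166 to -2.7167 for Cxcl11 and -1.3354 to -0.9376 for Cxcr3. In control + RAPA the members had between 2 and 13 reads per library, which limits the precision there. Interaction calls over all genes moved from 429 to 822 without a filter, 1010 with DESeq2 and 199 with the replicate block. With adjusted p alone, calls over all genes rose to 7668 in LL37 vs control, 4359 in LL37 vs LL37 + RAPA, 2527 in LL37 + RAPA vs control, 3338 in LL37 + RAPA vs control + RAPA (from 1510) and 2515 in the RAPA average (from 678).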
